A study of Mus musculus with 6 samples.

Results

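The MAP kinase cascade was examined at the level of its transcripts in sorted mouse T cell acute lymphoblastic leukemia (T-ALL) cells. Members were all array probes whose annotated gene symbol starts with Map4k, Map3k, Map2k or Mapk followed by a number, which gave 100 of the 45281 probes and 41 of the 19057 genes tested. They fell into 3 Map4k, 16 Map3k, 6 Map2k and 16 Mapk genes, and 6 of the 41 encode proteins that only carry a kinase's name, namely the scaffolds Mapk8ip1, Mapk8ip2 and Mapk8ip3 and the proteins Mapk1ip1, Mapk1ip1l and Map3k7cl. Within this rule no member was picked for its values, but the rule was set with earlier results of these data known. Map2k7, Map4k2, Map4k3, Map3k10, Map3k15 and Map3k19 were not analysed here.

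MAP kinase cascades pass signals from the cell surface to the nucleus through kinases that phosphorylate one another in tiers, from MAP4 kinases to MAP3 kinases, MAP2 kinases and finally the MAP kinases. The terminal kinases form branches: ERK for growth factor and antigen receptor signals, JNK and p38 mainly for stress and cytokines, and ERK5. In thymocytes these branches carry signals of the T cell receptor, and they act largely through phosphorylation, which an RNA array does not see.

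RNA had been taken from GFP+ CD4+ CD8+ bone marrow cells of male mice with leukemia induced by NOTCH1, sorted 4 weeks after transplantation, and each of the 6 samples was hybridised to 1 Illumina bead array. The control group was 3 arrays labelled wild type, and the other group was 3 arrays labelled as the Klf4 knockout. The sources used here do not give the strain, the Klf4 allele, the means of its deletion or the age of the mice, nor whether the 3 samples of a group came from separate mice, so the tests measure only the spread between these samples, which may be technical. The title places the study's question on JNK signalling through Map2k7.

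The signal of the Klf4 probe ran from 18.4 to 44 over the controls and was 46, 80.6 or 85.4 in the arrays labelled Klf4-deficient, the opposite of the label's direction. It is not known whether the probe falls inside the deletion, so it may check nothing, and the second group is called deficient-labelled below. All 12 measured markers of double-positive T cells were above background on every control array and 11 on every deficient-labelled array. The exception was Cd8a, which passed on 1 of 3 deficient-labelled arrays, while Cd8b1, which encodes the other CD8 chain, gave signals from 25892 to 29424 on all arrays. Markers of other cells varied between arrays, and no test was made of them. Of 11 measured monocyte and macrophage markers, 6 were above background on every control array and 7 on every deficient-labelled array, with a summed signal of 3768 to 5074 in controls and 4596 to 11316 in deficient-labelled arrays. Of 9 neutrophil markers all 9 were above background in both groups, with sums of 66453 to 90093 and 66484 to 115272, and deficient-labelled array 3 had the highest sum. The sums of the 7 measured erythroid markers ran from 35074 to 42545 and from 42675 to 57004, 6 of the 7 being above background on every array of either group and Epb42 on none. Of the 8 NK markers, 5 were above background on every array of either group, with sums of 2131 to 3125 and 2648 to 3522, and Ncr1 and Gzmb were above background on no array. Deficient-labelled array 3 also had the lowest mean signal of the 6 arrays, 359 against 417 to 445. In a sorted bulk sample, fewer cells of a type and less RNA per cell cannot be told apart.

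The array measured most of the cascade's levels in these cells, since 24 of the 41 genes gave a signal above background on all 6 arrays, 5 on some arrays and 12 on none. Background was taken as 3 times the SD of the mirrored negative values of an array, a limit of 21.8 to 23.7. Over all genes, 43.9% were above the limit on all 6 arrays. In the top tier, Map4k1 (HPK1, a kinase of blood cells that restrains T cell receptor signalling) and Map4k4 (HGK, an activator of JNK) were above the limit throughout. In the next tier this held for Map3k1, Map3k3, Map3k8, Map3k11, Map3k12, Map3k13, Map3k14 and Map3k20, and in the third for Map2k2, Map2k3, Map2k4, Map2k5 and Map2k6. Of the terminal kinases it held for the JNK genes Mapk8 and Mapk9, the p38 genes Mapk11, Mapk13 and Mapk14, and Mapk6, which encodes the atypical kinase ERK3. The genes under the limit on every array were Map4k5, Map3k2, Map3k4, Map3k7cl, Map3k9, Map3k21, Map2k1, Mapk4, Mapk7, Mapk10, Mapk12 and Mapk15, with no signal over 21.3. They include Mapk10, which encodes the JNK known mainly from neurons, and Mapk7, which encodes ERK5. A signal under the limit says only that these probes did not measure the transcript, and no difference is given for any of these 12 genes, although they enter the counts and medians over whole tiers.

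Between the groups, 0 of the 41 genes and 0 of the 100 probes passed at an adjusted p of 0.05 in limma, where 0.0105% of all genes and 0.00442% of all probes passed. At an unadjusted p under 0.05 there were 3 genes, all higher in deficient-labelled arrays (Mapk14, Mapk8ip2 and Map3k6), and 0 lower, against 7.6% of all genes in either direction. Of the 100 probes 4 did so, against 6.04% of all probes. The same 3 genes, 7.32% of the members, had groups that did not overlap on the normalized scale, against 11.6% of all genes (5.48% higher and 6.09% lower). Both gene shares lie near or under those of the whole array in either direction. In the higher direction alone, 7.32% lies above 5.48%, while 0 members lower stand against 6.09%. At an unadjusted p under 0.05 in limma, 669 of all 19057 genes were higher and 780 lower. The split by direction was not tested. In deposited signal the groups did not overlap for 1 member with deficient-labelled arrays higher (Mapk8ip2) and 1 with them lower (Map4k1), against 4.72% and 8.31% of all genes, or 13% in either direction. Over all 41 members, those under the limit included, 20 log2 differences lay above 0, against 45.4% of all genes. A gene at the floor on every array, such as Map3k7cl, counts as not above 0. Of the 24 genes above background on all 6 arrays, 13 had a log2 difference above 0 and 11 below, with a median of 0.02, and over all 8361 genes of that kind 47.4% lay above 0 and the median was -0.01. Among the 24 there was 1 gene without overlap, with deficient-labelled arrays higher, against 7.49% of the 8361 genes in that direction and 17.6% in either, and 1 gene had an unadjusted p under 0.05, against 11.4%. For 21 of these 24 the log2 difference was smaller than 0.25 in size.

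**Figure D1:**
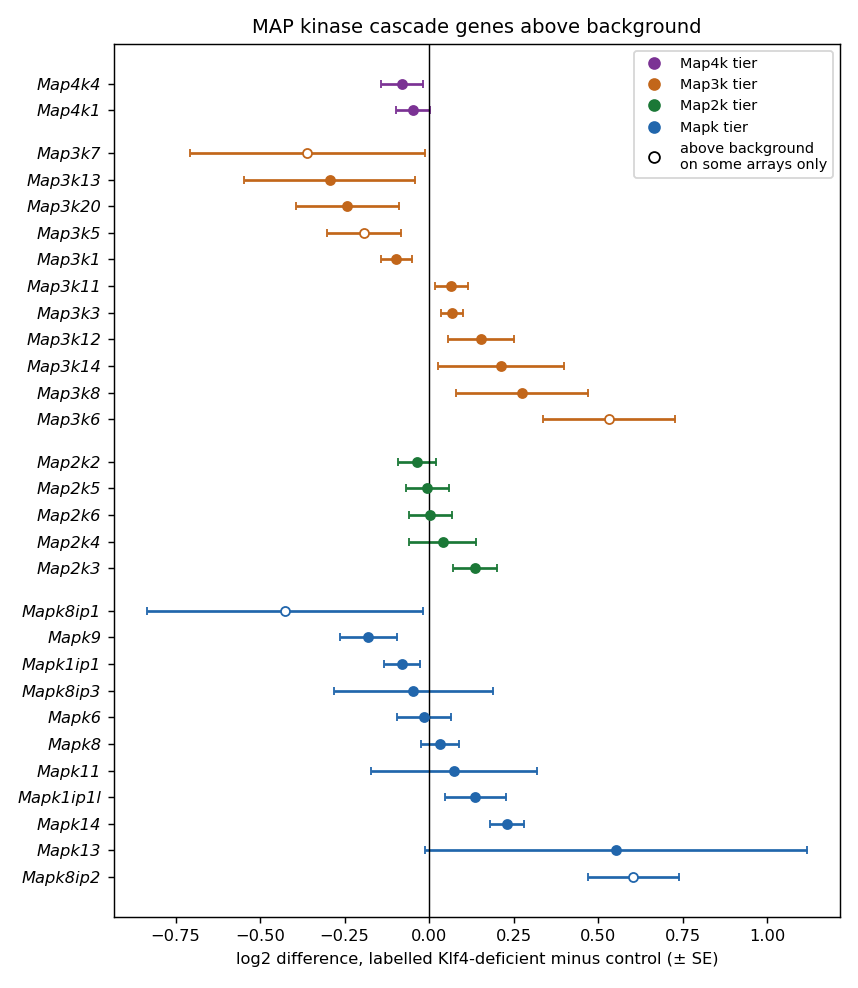
Log2 difference (deficient-labelled minus control, n = 3 arrays each) with its SE for the 29 member genes above background on at least 1 array, by tier; open points were above background on some arrays only. Most points lie within 0.25 of 0, and Mapk14 is the gene measured on all 6 arrays whose groups did not overlap.

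At the top of the cascade both measured MAP4 kinases lay slightly under their control level without passing. The signal of Map4k1 was 2836, 2573 and 2585 in controls and 2450, 2542 and 2172 in deficient-labelled arrays, so the groups did not overlap in deposited signal. They overlapped once arrays were normalized, with a log2 difference of -0.05 ± 0.05 (SE, 95% interval -0.18 to 0.08). Map4k4 gave 3709, 3131 and 3592 in controls and 3405, 3273 and 2532 in deficient-labelled arrays, with overlapping groups and a log2 difference of -0.08 ± 0.06 (95% interval -0.24 to 0.08). A second Map4k4 probe differed by 0.06 ± 0.19, the other way. The median log2 difference over these 2 genes was -0.06, against -0.01 over all genes above background on all arrays; Map4k5 was not measured above background.

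The MAP3 kinases, where stress, cytokine and receptor inputs enter, spread to both sides of 0. Of the 16 genes 9 were above 0 and 7 at or below it. The median log2 difference was 0.07, or 0.07 over the 8 genes above background on all arrays. Map3k1 (MEKK1, which acts upstream of JNK and ERK) gave 5696, 5202 and 6012 in controls and 5086, 5548 and 4227 in deficient-labelled arrays. These groups overlapped, the log2 difference was -0.10 ± 0.05 (95% interval -0.22 to 0.02, adjusted p = 0.741), and the other Map3k1 probe differed by -0.05 ± 0.06. Map3k3 (MEKK3, upstream of p38 and ERK5) gave 1186, 1085 and 1120 against 1190, 1142 and 962, and differed by 0.07 ± 0.03 (adjusted p = 0.743). Its sign depended on the scaling, at -0.02 with arrays centred on the median and -0.05 with no normalization.

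Several MAP3 kinase genes were dim and imprecise. Map3k6 (ASK2, a partner of the stress kinase ASK1) had signals of 25.2, 12.3 and 13.3 in controls and 29.8, 35.9 and 23 in deficient-labelled arrays. It was above background on 1 of 3 control and 3 of 3 deficient-labelled arrays, and control array 1 lay above deficient-labelled array 3 in signal but not after normalization (5.33 and 5.34 on the log2 scale). With 2 of 3 controls under the limit, its size is poorly fixed. The log2 difference was 0.53 ± 0.19 (adjusted p = 0.641), and it ran from 0.26 without control array 2 and 0.28 with an offset of 50 to 0.91 with an offset of 1. The second Map3k6 probe differed by 0.50 ± 0.29, with overlapping groups. Map3k5 (ASK1, which responds to oxidative stress) gave 28.9, 24 and 26.6 in controls and 16.3, 24.1 and 19.2 in deficient-labelled arrays, above background on 3 and on 1 of them. It differed by -0.19 ± 0.11 with overlapping groups.

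The remaining MAP3 kinases above background on at least 1 array had intervals that span 0. Map3k8 (TPL2, which links innate receptors to ERK) differed by 0.27 ± 0.19 and Map3k14 (NIK, the kinase of noncanonical NF-kappaB) by 0.21 ± 0.19. Map3k12 (DLK, upstream of JNK) differed by 0.15 ± 0.10, but by -0.10 ± 0.12 as the mean of its probes. Map3k11 (MLK3, upstream of JNK) differed by 0.07 ± 0.05. Map3k13 (LZK) differed by -0.29 ± 0.25 and Map3k20 (ZAK, which senses stalled ribosomes) by -0.24 ± 0.15. Map3k7 (TAK1, which relays cytokine receptor signals to JNK, p38 and NF-kappaB) was above background on 3 of 3 control and 2 of 3 deficient-labelled arrays. It gave 53.2, 45.2 and 57.1 in controls and 35.1, 64.3 and 16.6 in deficient-labelled arrays, a difference of -0.36 ± 0.35 with overlapping groups. A second Map3k7 probe, above background on 2 of 3 control and 3 of 3 deficient-labelled arrays, differed by 0.13 ± 0.26, the other way.

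The MAP2 kinases, which phosphorylate the terminal kinases, did not pass either. Their median log2 difference was 0.00, and the 5 genes above background ran from -0.04 to 0.14. Map2k4, which phosphorylates JNK and p38 and is the measured relative of Map2k7, gave 1366, 1225 and 1414 in controls and 1199, 1339 and 1260 in deficient-labelled arrays. The groups overlapped. Map2k4 differed by 0.04 ± 0.10 (95% interval -0.22 to 0.30), and its second probe differed by -0.02 ± 0.07. Its value was -0.07 with no normalization. It turned to -0.15 ± 0.07 with the marker score of other cells as a covariate, which did not pass (adjusted p = 0.68 in limma). That score was the mean over the erythroid, monocyte and macrophage, neutrophil and NK markers on each array.

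Map2k3 and Map2k6 both activate p38. Map2k3 gave 2473, 2437 and 2475 in controls and 2723, 2501 and 2334 in deficient-labelled arrays. Deficient-labelled array 3 was the lowest in signal and the highest after normalization, and the normalized groups overlapped. Map2k3 differed by 0.14 ± 0.06 (95% interval -0.03 to 0.31, adjusted p = 0.743). Map2k6 gave 225, 181 and 220 against 197, 220 and 173, and differed by 0.00 ± 0.06 (95% interval -0.16 to 0.17). Its other probes differed by -0.20 ± 0.19 and -0.12 ± 0.21. The difference between Map2k3 and Map2k6 was not tested. Map2k3 differed by 0.06 with arrays centred on the median and by 0.03 with no normalization.

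Map2k2 (MEK2, a direct activator of ERK) gave 3857, 3387 and 3555 in controls and 3246, 3598 and 2950 in deficient-labelled arrays, and differed by -0.04 ± 0.05 (95% interval -0.18 to 0.11). Map2k5, the activator of ERK5, gave 1045, 884 and 1075 against 1011, 1021 and 763, and differed by -0.01 ± 0.06 (95% interval -0.17 to 0.16). For both genes the groups overlapped on the probe used. A second Map2k2 probe differed by 0.04 ± 0.13, the other way. The other Map2k5 probes differed by -0.19 ± 0.17 and 0.16 ± 0.11, on both sides of 0. Map2k1 (MEK1), the partner of MEK2, had 1 probe with signals from 0.5 to 10 and was not measured above background. Over the 21 alternatives Map2k3 stayed above 0 (0.03 to 0.20), while Map2k2 ran from -0.14 to 0.01, Map2k4 from -0.15 to 0.12, Map2k5 from -0.11 to 0.10 and Map2k6 from -0.11 to 0.04.

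**Figure D2:**
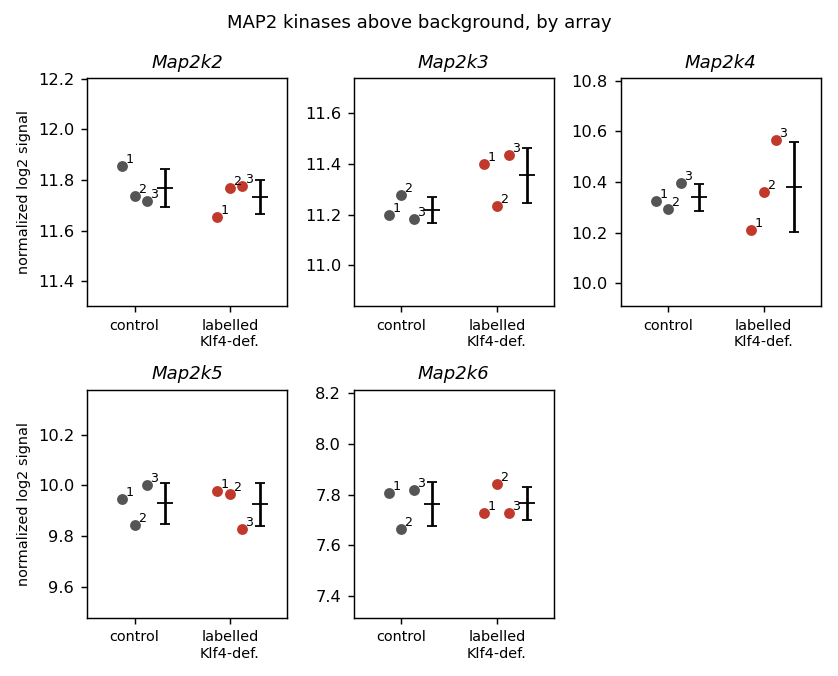
Normalized log2 signal of the 5 MAP2 kinase genes above background on each array (points, numbered by array), with the mean and SD of each group of 3. The groups overlap in every panel, and the Map2k3 difference of 0.14 falls to 0.03 with no normalization.

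The JNK genes, whose kinases are the output named in the title, showed no difference that passed. Mapk8 (JNK1) gave 366, 291 and 335 in controls and 332, 339 and 274 in deficient-labelled arrays, with overlapping groups and a log2 difference of 0.03 ± 0.06 (95% interval -0.11 to 0.18, adjusted p = 0.933). Of the 3 Mapk8 probes above background on all arrays, the others differed by 0.00 ± 0.06 and -0.07 ± 0.17. Over the 21 alternatives Mapk8 ran from -0.12 to 0.09. Mapk9 (JNK2) gave 2678, 2772 and 3023 in controls and 2478, 2700 and 1818 in deficient-labelled arrays. Deficient-labelled array 2 lay within the control range and array 3 was the lowest. Mapk9 differed by -0.18 ± 0.08 (95% interval -0.40 to 0.04, adjusted p = 0.739), by -0.11 without deficient-labelled array 3, by -0.09 with the marker score of other cells as a covariate, by -0.27 with arrays centred on the median and by -0.29 with no normalization. The other 2 bright Mapk9 probes differed by -0.04 ± 0.17 and -0.34 ± 0.21, so all 3 were below 0. Mapk10 (JNK3) was not measured above background on any of its 3 probes.

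The p38 alpha gene Mapk14 was the member with the smallest p. This kinase responds to stress and cytokines and acts on the kinases Mapkapk2 and Mapkapk3. Its signal was 3297, 3229 and 3495 in controls and 3732, 3815 and 3397 in deficient-labelled arrays, so in deposited signal control array 3 lay above deficient-labelled array 3. After normalization the log2 values were 11.62, 11.68 and 11.69 in controls and 11.85, 11.84 and 11.99 in deficient-labelled arrays, and the groups did not overlap. The log2 difference was 0.23 ± 0.05 (95% interval 0.10 to 0.36, 1.17-fold, unadjusted p = 0.00662), and it did not pass over all genes (adjusted p = 0.447 in limma). Over 21 alternatives it stayed above 0, from 0.13 to 0.26, with adjusted p between 0.332 and 0.776. It was 0.13 with no normalization, 0.15 with arrays centred on the median and 0.14 with the marker score of other cells as a covariate. Without deficient-labelled array 3 it was 0.18 ± 0.03 (adjusted p = 0.44). Mapk14 was measured by 1 probe.

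The other p38 genes did not pass. Mapk12 (p38 gamma) was under the background limit on every array. Mapk13 (p38 delta) gave 74.8, 110 and 70.7 in controls and 79.2, 81.3 and 264 in deficient-labelled arrays. Deficient-labelled array 3 alone was high, and the other arrays of its group lay within the control range. Its log2 difference was 0.55 ± 0.57 (adjusted p = 0.802), and -0.02 without that array. A second Mapk13 probe showed the same array as highest, at 235, and differed by 0.41 ± 0.64. Mapk11 (p38 beta) gave 262, 309 and 248 against 223, 255 and 332, and differed by 0.07 ± 0.24, or by -0.16 without deficient-labelled array 3. A second Mapk11 probe was under the background limit on every array and is not read. Relative to the control mean, deficient-labelled array 3 lay at 1.71 for Mapk13 and at 0.53 for Mapk11, while the list medians there were 1.43 for erythroid, 1.32 for monocyte and macrophage, 1.20 for neutrophil and 0.96 for NK markers. All 4 were highest in that array. In deficient-labelled arrays 1 and 2 they were 0.18 and 0.68, 0.44 and 0.99, -0.20 and -0.06, and 0.15 and 0.50, in the same order. With the marker score of other cells as a covariate, Mapk13 differed by -0.57 ± 0.33 and Mapk11 by -0.42 ± 0.13 (adjusted p = 0.742 and 0.619 in limma). Control medians reached at most 0.13 for erythroid, 0.20 for monocyte and macrophage and 0.14 for NK markers, under every deficient-labelled array. Neutrophil medians overlapped. The score thus runs partly with the group, and 6 arrays cannot separate them. Values with this covariate, for any gene, are not corrected estimates.

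**Figure D3:**
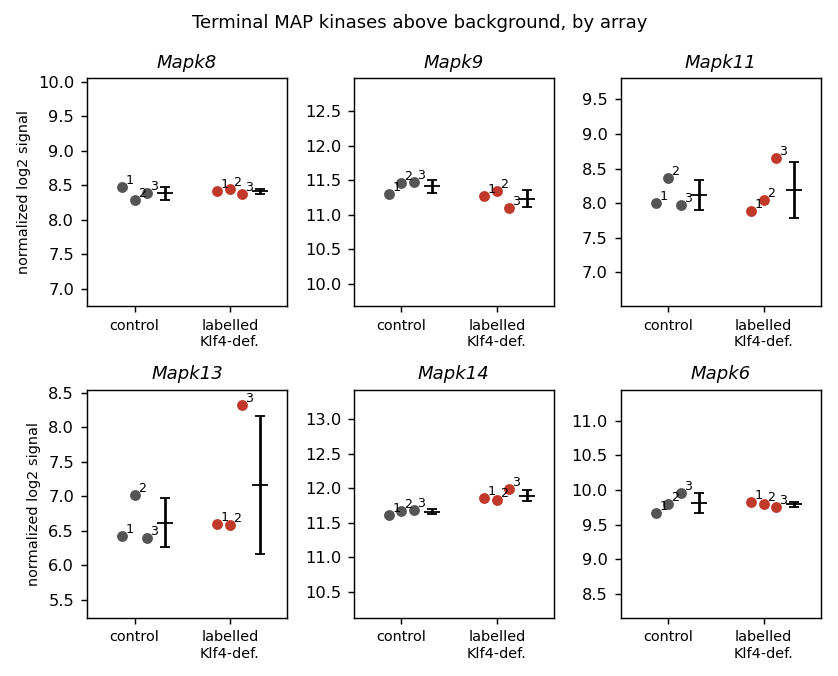
Normalized log2 signal of 6 terminal MAP kinase genes on each array (points, numbered by array), with the mean and SD of each group of 3 and the same height of scale in each panel. The deficient-labelled arrays of Mapk14 lie at 11.84 to 11.99, above all controls, and Mapk13 is high in deficient-labelled array 3 only.

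**Figure D4:**
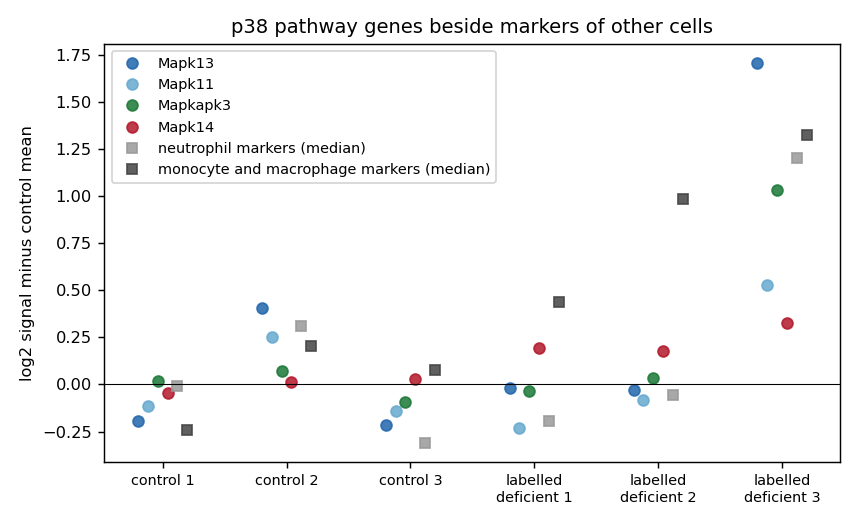
Log2 signal relative to the control mean on each of the 6 arrays for Mapk13, Mapk11, Mapk14 and the p38 substrate Mapkapk3, beside the median of 9 neutrophil and 11 monocyte and macrophage markers. Mapk13 (1.71), Mapkapk3 (1.03) and the neutrophil markers (1.20) all stand high in deficient-labelled array 3, and Mapk14 lies between 0.18 and 0.32 on the 3 deficient-labelled arrays.

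Promoters of the Mapk14 and JNK genes are shown because the group label concerns a factor of the Klf family, whose zinc fingers are known to bind CACCC and GC-rich boxes, and because Mapk14 had the smallest p and Mapk8 and Mapk9 are the kinases of the title. Each runs from 250 bases before to 50 bases after a RefSeq start on mouse build GRCm38.p6, 5′ to 3′ on the gene's strand. Capitals mark each match on either strand to CACCC or to GGGNGNGGC, in which N is any base.
Mapk14, chr17:28691092-28691391, plus strand: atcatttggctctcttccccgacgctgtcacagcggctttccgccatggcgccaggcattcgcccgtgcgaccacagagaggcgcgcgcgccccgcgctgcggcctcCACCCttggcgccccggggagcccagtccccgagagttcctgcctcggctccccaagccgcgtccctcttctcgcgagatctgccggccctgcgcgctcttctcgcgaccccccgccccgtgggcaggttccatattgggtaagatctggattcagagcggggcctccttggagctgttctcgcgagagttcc
Mapk14, chr17:28692318-28692617, plus strand: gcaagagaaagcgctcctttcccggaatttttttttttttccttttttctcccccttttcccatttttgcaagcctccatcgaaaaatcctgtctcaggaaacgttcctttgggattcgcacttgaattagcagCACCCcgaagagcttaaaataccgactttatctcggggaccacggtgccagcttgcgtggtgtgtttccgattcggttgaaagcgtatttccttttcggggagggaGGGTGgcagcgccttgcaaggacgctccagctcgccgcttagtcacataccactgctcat
Mapk8, chr14:33447109-33447408, minus strand: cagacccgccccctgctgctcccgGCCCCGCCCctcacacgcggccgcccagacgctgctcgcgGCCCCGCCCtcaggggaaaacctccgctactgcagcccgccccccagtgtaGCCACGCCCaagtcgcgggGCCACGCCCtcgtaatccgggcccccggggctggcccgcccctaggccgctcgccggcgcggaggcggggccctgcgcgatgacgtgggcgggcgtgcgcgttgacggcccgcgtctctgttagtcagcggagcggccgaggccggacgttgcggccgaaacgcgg
Mapk9, chr11:49846501-49846800, plus strand: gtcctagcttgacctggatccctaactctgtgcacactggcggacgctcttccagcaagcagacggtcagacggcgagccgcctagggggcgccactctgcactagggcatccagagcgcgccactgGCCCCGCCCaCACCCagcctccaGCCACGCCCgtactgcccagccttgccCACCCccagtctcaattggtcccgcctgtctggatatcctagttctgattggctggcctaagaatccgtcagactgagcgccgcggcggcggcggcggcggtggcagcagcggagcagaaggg
The first Mapk14 start held 1 match to CACCC and the second 2, and neither held GGGNGNGGC. The Mapk8 start shown held 0 and 4 matches and the Mapk9 start 2 and 2, while another Mapk8 start, at chr14:33410975-33411274, held neither. RefSeq starts were found for 33 of the 41 genes, 44 in all, and 36 of the 44 (81.8%) held CACCC and 19 (43.2%) held GGGNGNGGC. Of all 32851 promoters of this length, 57.5% held the first and 25.8% the second. Starts of 1 gene can lie close together, as for Mapk7 and Map3k20, so their stretches share bases and the same match is counted for each. Base composition was not matched. A match is a description of these letters and not a binding site, and the share was not tested.

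Among the remaining genes of the tier, Mapk6 (ERK3) gave 859, 862 and 1041 in controls and 900, 909 and 727 in deficient-labelled arrays, and differed by -0.02 ± 0.08 with overlapping groups. The scaffolds of JNK were dim. Mapk8ip2 (JIP2) gave 9.7, 5.9 and 4.6 in controls and 16.1, 23.2 and 14.7 in deficient-labelled arrays, so the groups did not overlap, but it was above background on 0 of 3 control and 1 of 3 deficient-labelled arrays and no fold is given. Mapk8ip1 (JIP1) was above background on 2 of 3 control and 0 of 3 deficient-labelled arrays, with overlapping groups and no fold. Mapk8ip3 (JIP3) differed by -0.05 ± 0.24. Mapk1ip1l differed by 0.14 ± 0.09, and by -0.02 as the mean of its probes. Over the 16 Mapk genes the median log2 difference was -0.03, and it was 0.03 over the 9 above background on all arrays.

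Probes of 1 gene often disagreed in sign, and most of these differences were within their error. Of 14 genes with several probes above background on all arrays, 4 had probes that all lay on the same side of 0 and 10 did not. The 4 were Map3k1, Map3k20 and Mapk9, all below 0, and Mapk13, above 0. Mapk1ip1, whose product binds MAP kinase and the mitotic spindle, had probes on both sides of 0. The probe used for the gene differed by -0.08 ± 0.05. A second probe gave 366, 316 and 331 in controls and 287, 315 and 236 in deficient-labelled arrays, did not overlap and differed by -0.17 ± 0.06, while the third differed by 0.17 ± 0.13. Among the 46 probes above background on all arrays 1 did not overlap with deficient-labelled arrays higher (Mapk14) and 1 with them lower (Mapk1ip1). Over all 45281 probes, those under the limit included, 9.55% did not overlap in either direction. No share was taken over all probes above background on all arrays. Of genes of that kind 17.6% did not overlap.

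**Figure D5:**
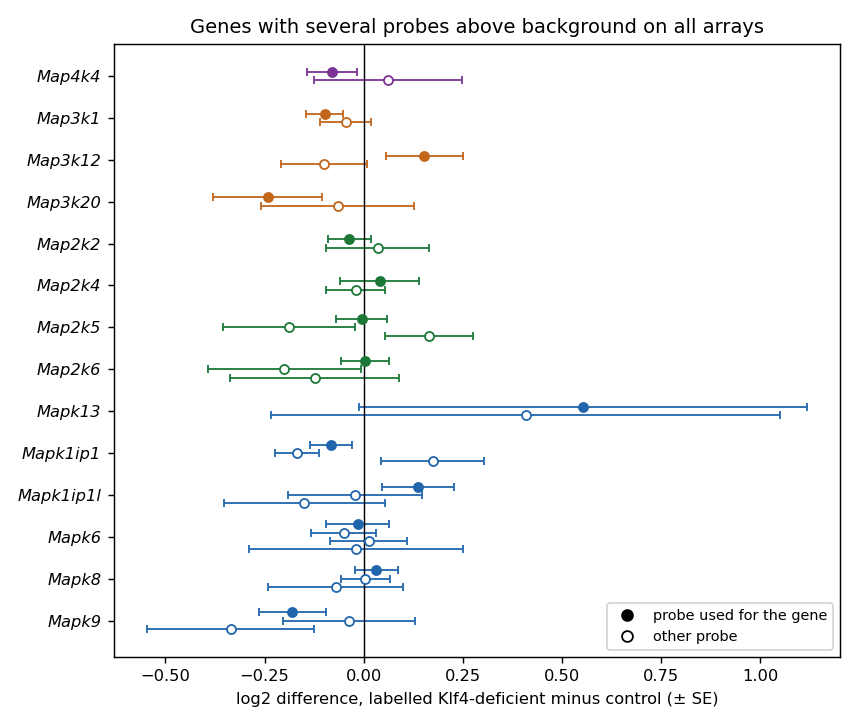
Log2 difference (deficient-labelled minus control) with its SE for each probe of the 14 member genes that have several probes above background on all 6 arrays; filled points are the probes used for the gene. In 10 of the 14 genes the probes lie on both sides of 0.

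The partners of the cascade were described from a list of 84 genes, of which 70 were measured. Of these, 0 passed in either direction in limma, where 0.0105% of all genes passed. At an unadjusted p under 0.05 there were 2 higher (Gadd45a and Shoc2) and 1 lower (Tab1), against 7.6% of all genes in either direction. Shoc2, a scaffold of the Ras to ERK branch, was above background on no array. The median log2 difference was 0.01, and 57 of the 70 were above background on all 6 arrays. Groups did not overlap for 6 of the 70 (8.57%), against 11.6% of all genes and 17.6% of those above background on all 6 arrays. The 6 were Gadd45a, Gadd45b, Elk3 and Shoc2, higher in deficient-labelled arrays, and Tab1 and Ptpn11, lower. Among the upstream switches and adaptors, 14 of 30 lay above 0 and 16 at or below it. Over all genes 45.4% lay above 0. Tab1, which activates TAK1 and also binds p38 alpha, gave 4754, 4140 and 4635 in controls and 3670, 3883 and 3123 in deficient-labelled arrays. All 3 deficient-labelled arrays were under all controls, and the log2 difference was -0.24 ± 0.03 (95% interval -0.33 to -0.15, adjusted p = 0.352). It stayed below 0 over 21 alternatives, from -0.34 to -0.21. Ptpn11, the phosphatase SHP2 of the Ras pathway, differed by -0.08 ± 0.03 (adjusted p = 0.694), and its groups did not overlap after normalization.

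Of the scaffolds and regulators, 11 of 19 lay above 0 and 8 at or below it. Gadd45a, which binds and activates the MAP3 kinase Map3k4, gave 695, 704 and 771 in controls and 1089, 967 and 839 in deficient-labelled arrays. The groups did not overlap and the log2 difference was 0.51 ± 0.07 (adjusted p = 0.352), while Map3k4 itself was under the background limit on every array. Gadd45b, a relative of Gadd45a, gave 64.2, 55.8 and 37.3 against 66.1, 72.3 and 68.6 and differed by 0.39 ± 0.19 (adjusted p = 0.743). Spred1, an inhibitor of the Ras to ERK branch, differed by 0.13 ± 0.05 with overlapping groups, and by 0.02 with no normalization. Of the 6 downstream kinases 4 lay above 0 and 2 below. Mapkapk2, which p38 activates, gave 965, 878 and 833 against 988, 895 and 960 and differed by 0.20 ± 0.12, by 0.09 without deficient-labelled array 3 and by 0.04 with the marker covariate. Its relative Mapkapk3 was high in deficient-labelled array 3 alone (605, against 330 to 369 in the other arrays), as Mapk13 was. Rps6ka3, the ERK-activated kinase RSK2, differed by 0.15 ± 0.07 with overlapping groups, and by 0.04 with no normalization. Among the 15 transcription factor substrates 8 lay above 0 and 7 below. Fos had the largest difference of the 70 partners, 1.02 ± 0.63 with overlapping groups (adjusted p = 0.783 in limma). It gave 323, 231 and 709 in controls and 1600, 459 and 524 in deficient-labelled arrays. Jun differed by 0.36 ± 0.30 with overlapping groups, and both genes were highest in deficient-labelled array 1. Elk3, an Ets factor that ERK phosphorylates, differed by 0.28 ± 0.12 and its groups did not overlap, but the mean of its probes differed by 0.04 ± 0.07. Nfatc1, a calcium-regulated factor of T cells that JNK and p38 can phosphorylate, differed by -0.16 ± 0.08, but by 0.06 ± 0.06 as the mean of its probes.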

How the data were processed

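Each deposited value is a bead array intensity, not logged, and the submitters' processing notes name BeadStudio without a version. The sources used here do not give the background correction or any normalization between arrays, and values under 0 occur on every array. Negative values were raised to 0, and log2(value + 16) was quantile normalized. Of 45281 probes, 34885 had 1 gene symbol in the platform's annotation, 18 had several and 10378 are unnamed here; only probes with 1 symbol stand for a gene. A gene took its probe of highest mean normalized log2 value across the 6 arrays. Differences (deficient-labelled minus control) came from limma 3.58.1 in R 4.3.3 (lmFit and trended eBayes). P-values were adjusted by Benjamini-Hochberg over 19057 genes, or over all probes for values of a second probe, with a threshold of 0.05. An offset of 16 understates changes of dim genes. With 3 arrays in each group, exact permutation allows no p under 0.10, and it was not used. Errors of differences are SE. The fit was tested on simulated data. No pair of samples held identical values. The background limit was set after the values had been seen.

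The members and the lists were chosen with earlier results of these data known. The JNK and p38 genes, the MAP2 kinases and members with probes of differing sign were named by rule. So were members above background whose groups did not overlap. The rule also named up to 4 genes per tier and up to 2 per partner list with the smallest p among those above background. Other members are given to account for the tier. Mapkapk3, Gadd45b, Shoc2, Fos and Jun were picked with their values in view. The alternatives were other normalizations, offsets, filters, moderation, thresholds, blocks and covariates, and leaving out each array. Precision is limited by the array number. B lineage, megakaryocyte and stromal markers were summed too: their sums were 678 to 887, 56.7 to 87.6 and 102.5 to 151 in controls and 571 to 810, 76.3 to 129 and 98.6 to 166 in deficient-labelled arrays.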

Additional observations from a re-analysis of the deposited data

How the results depend on the processing

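Over 21 alternatives the counts of members and partners that passed were 0, with 1 exception among them chosen after seeing the data: deficient-labelled array 1 alone against the controls, which leaves out the arrays with the highest markers of other cells. There 1 member gene (Map3k21) and 2 probes (of Map3k21, and a Map3k8 probe not used for the gene) passed, both under 0 in signal in all 3 controls, among 501 genes and 1388 probes in all; the lone array is assumed to vary like the controls. With the replicate block 0 member genes, 0 probes and 0 partners passed. Samples were also compared after each group's mean was taken from every probe, over probes with a mean signal above the mean background limit. On these residuals same-numbered samples correlated at 0.18, -0.08 and -0.10, and other pairs across the groups at -0.23 to 0.23. The numbers were therefore not taken as pairs.

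Tier medians, which include genes under the background limit, moved with the scaling. Centring on the median gave 0.0056 for Map3k, -0.051 for Map2k and -0.032 for the partners. No normalization gave -0.16 for Map4k, -0.020 for Map3k, -0.076 for Map2k, -0.10 for Mapk and -0.057 for the partners. Cyclic loess gave 0.031 for Map2k, the filter on dim probes 0.032 for Mapk, array weights 0.031 for Map3k and 0.039 for Mapk, the mean of probes 0.014 and the marker covariate -0.0058 for Map3k, and array 1 alone -0.0059 for Map3k and -0.12 for Mapk. Leaving out each array gave -0.12 to -0.034 for Map4k, 0.027 to 0.079 for Map3k, -0.030 to 0.034 for Map2k, -0.056 to 0.041 for Mapk and -0.0057 to 0.015 for the partners.

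The 28 genes named by rule and above background on at least 1 array gave 588 values, 0 of them called, and 48 had another sign than the value reported; Map2k1, Mapk10 and Mapk12, under the limit on every array, were left out. In 18 of the 48, from 10 genes, either value lay over 1 SE from 0, and they are given here. Centring on the median gave -0.021 for Map3k3. No normalization gave -0.074 for Map2k4 and -0.047 for Map3k3. The mean of probes gave -0.10 for Map3k12, -0.018 for Mapk1ip1l and 0.055 for Nfatc1. The marker covariate gave -0.15 for Map2k4, 0.10 for Map2k5, -0.033 for Map3k12, 0.031 for Map4k4, -0.42 for Mapk11 and -0.57 for Mapk13. Array 1 alone gave -0.13 for Map2k4, -0.012 for Map3k12, 0.0097 for Map4k4 and -0.23 for Mapk11. Leaving out each array gave -0.085 to 0.057 for Mapk6 and -0.16 to 0.23 for Mapk11. The cause was not tested. Signal over background limits the 12 members under the limit, which were not measured.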
